A study of Homo sapiens with 6 samples.

Results

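The genes described here are the E2F transcription factors E2F1, E2F2, E2F3, E2F6, E2F7 and E2F8, the pocket protein genes RB1, RBL1 and RBL2, and TFDP1, which encodes the dimer partner DP1. They were chosen by gene symbol, with earlier results of these data known. All 10 were found among the 20683 symbols of the count tables and passed the filter on low counts, E2F2 only through the DMSO libraries. The cells were HT-1080, a line grown from a human fibrosarcoma, and their mRNA was read by multiplex PCR and sequencing after 4 h with the compound SLV-8472-01, described in the series as an inhibitor of the kinase IRAK4, at a labelled dose of 5 mM (3 libraries), or after 4 h with 0.1% DMSO, the solvent (3 libraries). Whether that dose refers to the culture or to a stock solution is not stated. All libraries come from this line, so its background is shared by both groups.

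E2F proteins bind DNA as dimers with a DP protein and switch on genes that a cell needs to enter and pass through S phase. In resting and early G1 cells the pocket proteins RB, p107 (the product of RBL1) and p130 (the product of RBL2) hold E2F at these promoters and block transcription. Cyclin D and cyclin E kinases phosphorylate the pocket proteins and release E2F. E2F1, E2F2 and E2F3 are the activators bound by RB. E2F6 lacks the part that binds pocket proteins and represses as part of a Polycomb complex. E2F7 and E2F8 are atypical repressors that bind DNA without DP and switch the same genes off late in S phase. Several of these genes are themselves under E2F control, so the family regulates its own level.

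The promoters of the members are shown first because the text returns to them beside each gene's change. RefSeq windows on GRCh38.p14, from 250 bases before the annotated start to 50 bases from it, were used for 8 members (10 windows), and E2F8 is named only. The window listed for RB1 begins from a start 172724 bases inside the gene as GENCODE annotates it, so it was left out and the RB1 promoter was not searched. They were searched on both strands for 8 words that start with TTT, continue with C or G at each of the next 2 positions, then CG, and end in C or G: TTTCCCGC, TTTCCCGG, TTTCGCGC, TTTCGCGG, TTTGCCGC, TTTGCCGG, TTTGGCGC and TTTGGCGG. These words were set down after the windows had been seen. A match is a match of letters, not a site shown to be bound. The windows of E2F1, E2F2, E2F3 (the first of its 2 starts) and RBL1 are given because they hold such words close to the start, and that of E2F7 because it holds none. No cutoff for closeness was set. The windows of E2F6 and TFDP1, which hold such words farther from the start, and of RBL2, which hold none, are not printed. Each is written 5′ to 3′ on the strand of its gene, with the matched words, on either strand, in capitals.
E2F1 promoter (chr20:33686336-33686635, minus strand): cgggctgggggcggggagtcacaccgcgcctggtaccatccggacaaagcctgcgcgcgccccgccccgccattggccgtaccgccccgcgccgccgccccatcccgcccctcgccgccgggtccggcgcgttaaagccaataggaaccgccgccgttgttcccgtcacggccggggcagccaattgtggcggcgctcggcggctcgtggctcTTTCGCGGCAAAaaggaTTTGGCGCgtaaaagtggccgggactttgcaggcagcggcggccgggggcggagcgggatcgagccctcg
E2F2 promoter (chr1:23531184-23531483, minus strand): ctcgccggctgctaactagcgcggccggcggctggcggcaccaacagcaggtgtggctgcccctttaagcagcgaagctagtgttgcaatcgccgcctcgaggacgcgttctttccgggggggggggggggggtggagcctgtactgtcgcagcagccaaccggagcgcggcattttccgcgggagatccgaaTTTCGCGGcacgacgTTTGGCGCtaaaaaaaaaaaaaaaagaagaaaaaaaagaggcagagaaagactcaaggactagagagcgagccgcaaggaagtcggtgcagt
E2F3 promoter (chr6:20401629-20401928, plus strand): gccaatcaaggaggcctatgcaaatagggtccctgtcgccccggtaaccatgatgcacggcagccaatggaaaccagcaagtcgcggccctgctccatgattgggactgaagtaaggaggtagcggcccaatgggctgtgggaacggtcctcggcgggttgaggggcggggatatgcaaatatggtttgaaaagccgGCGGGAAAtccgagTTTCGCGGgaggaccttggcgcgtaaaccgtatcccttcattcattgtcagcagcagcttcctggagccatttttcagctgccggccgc
RBL1 promoter (chr20:37095948-37096247, minus strand): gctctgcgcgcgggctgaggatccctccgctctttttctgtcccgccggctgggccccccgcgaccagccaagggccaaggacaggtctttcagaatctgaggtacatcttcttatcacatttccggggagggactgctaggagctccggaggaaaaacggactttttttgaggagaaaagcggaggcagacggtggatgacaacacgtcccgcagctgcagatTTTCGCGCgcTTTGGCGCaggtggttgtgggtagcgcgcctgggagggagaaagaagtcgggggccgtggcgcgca
E2F7 promoter (chr12:77065520-77065819, minus strand): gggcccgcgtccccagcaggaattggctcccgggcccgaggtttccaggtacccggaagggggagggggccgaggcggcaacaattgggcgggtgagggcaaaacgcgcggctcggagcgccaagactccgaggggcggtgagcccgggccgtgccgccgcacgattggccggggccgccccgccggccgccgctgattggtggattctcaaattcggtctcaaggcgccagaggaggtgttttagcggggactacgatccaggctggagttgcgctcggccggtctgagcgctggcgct

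An E2F word was present in 6 of the 8 members with a window, namely E2F1, E2F2, E2F3, E2F6, RBL1 and TFDP1. Of all 27305 genes in the RefSeq table, 7.43% had at least 1 of these words, and of all 35116 windows of the same length, 6.19% held at least 1. E2F1 had 3 matches, 2 of them overlapping each other on opposite strands, and they began 37, 33 and 20 bases before the start. E2F2 and RBL1 had 2 matches each, which began 57 and 42 bases before the start of E2F2 and 26 and 16 bases before that of RBL1. In E2F1, E2F2 and RBL1 alike, the match nearest the start was TTTGGCGC. The first start of E2F3 had 2, which began 53 and 39 bases before it, and the second start had 0. E2F6 had 2 copies of TTTCCCGG farther out, and TFDP1 had 1 match on the opposite strand. E2F7 and both windows of RBL2 held 0. The 2 RBL2 starts lie 494 and 1642 bases inside the gene as GENCODE annotates it. The bases around the first base of that gene were therefore not searched. The letters CCAAT, which the factor NF-Y reads, occurred 4 times each in E2F3 and E2F7, on either strand. E2F1 held them 3 times and the second RBL2 window 1 time. These are 4 of the 8 members with a window, against 39.7% of all genes and 34.6% of all windows. The letters TTTGAA, known as the CHR and read by the MuvB complex, occurred in E2F3 and RBL2, against 18.2% of all genes and 15.2% of all windows.

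**Figure D1:**
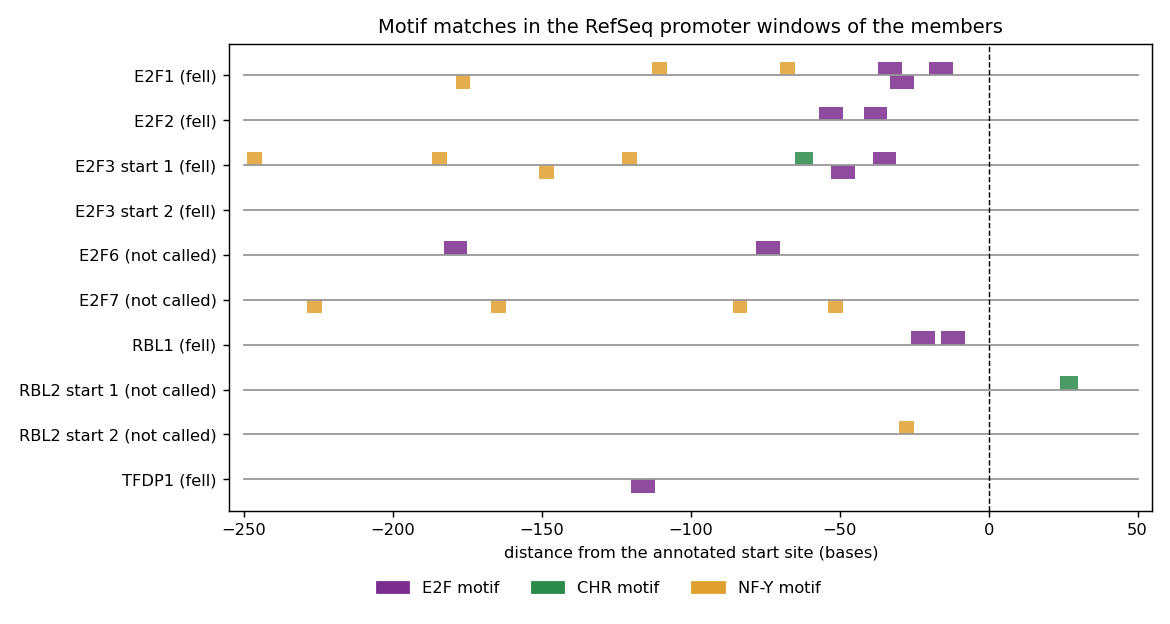
Each line is a promoter window of a member, with its call in the comparison of inhibitor against DMSO in brackets, and the horizontal axis is the distance in bases from the annotated start site. Boxes mark matches of 3 sets of letters, above the line on the gene's strand and below it on the other. E2F words lie within 57 bases of the start in E2F1, E2F2, RBL1 and the first start of E2F3, and are missing from the windows of E2F7 and RBL2.

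The inhibitor libraries held 7644478 to 11427779 counts and the DMSO libraries 12003104 to 15336351, so the inhibitor group was the shallower. Of 11391 genes tested, 1168 fell (10.3%) and 1129 rose (9.91%) with the inhibitor, by edgeR's quasi-likelihood test at an adjusted p under 0.05. With library totals as the only scaling, 1722 fell and 832 rose, and without DMSO replicate 2 the genes called in either direction numbered 1405, against 2297 (20.2%) with all libraries. Inhibitor replicate 3, which had the lowest total, lay at -23.6 on the second principal component (16.8% of the variance), with the other inhibitor libraries at 13.2 and 9.97. The mesenchymal markers chosen for the line (VIM, FN1, LGALS1, CD44, SPARC, COL6A1, COL6A2 and TAGLN) summed to 9031 to 11007 CPM (normalised counts, scaled to a common library size) with the inhibitor and 8216 to 9219 with DMSO, and 5 of the 8 rose. The part of this difference in the members' results was not tested. Epithelial markers summed to at most 1.43 CPM with the inhibitor and 1.97 with DMSO, leukocyte markers to at most 0.978 with the inhibitor and 0.318 with DMSO, and endothelial markers to at most 1.30 with the inhibitor and 1.48 with DMSO. CDH1, PTPRC and CD3E had no count in any library. Counts come from multiplex PCR of a part of each transcript, so the level of one gene cannot be set against that of another, and only changes between groups are compared. In these bulk libraries, fewer cells in a phase of the cell cycle and less mRNA per cell cannot be told apart.

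Of the 10 members, 6 fell with the inhibitor (E2F1, E2F2, E2F3, E2F8, RBL1 and TFDP1) and 0 rose, against 10.3% of all tested genes that fell and 9.91% that rose. E2F2 was tested only because it is high in the DMSO group: all 3 DMSO libraries and 0 of the inhibitor libraries reached the filter's level of 0.854 CPM, while the other 9 members reached it in all 6 libraries. Without E2F2 the count is 5 of 9. The remaining 4, E2F6, E2F7, RB1 and RBL2, were not called in either direction. The members were chosen with earlier results known, so their share is not that of the whole family. The tested relatives outside them, E2F4, E2F5 and TFDP2, were not called. The median log2 fold change of the members was -0.48, against 0.0033 over all tested genes. In 6 members every inhibitor library lay below every DMSO library (18.7% of all tested genes), and in RBL2 every inhibitor library lay above (17.6% of all tested genes). E2F2 is included in the median and is among these 6. The 6 members without overlap on the low side are not the same as the 6 that fell: E2F6 was separated without a call, and TFDP1 was called although its groups overlapped. With every library thinned to the smallest total, 6 members fell as well.

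Of the 6 members with an E2F word in their window, 5 fell, against 10.3% of all tested genes, and E2F6 was not called. The 5 include E2F2, which entered the test only through the DMSO libraries. The share that fell among all tested genes with such a word was not computed. A link between word and fall was therefore not tested. E2F7 and RBL2, whose windows held no such word, were not called, as was the case for most of the genes tested (20.2% were called). For RBL2 the windows lie inside the gene as GENCODE annotates it, so the bases around its first base were not searched. The words were set down after the windows had been seen, and binding was not measured.

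**Figure D2:**
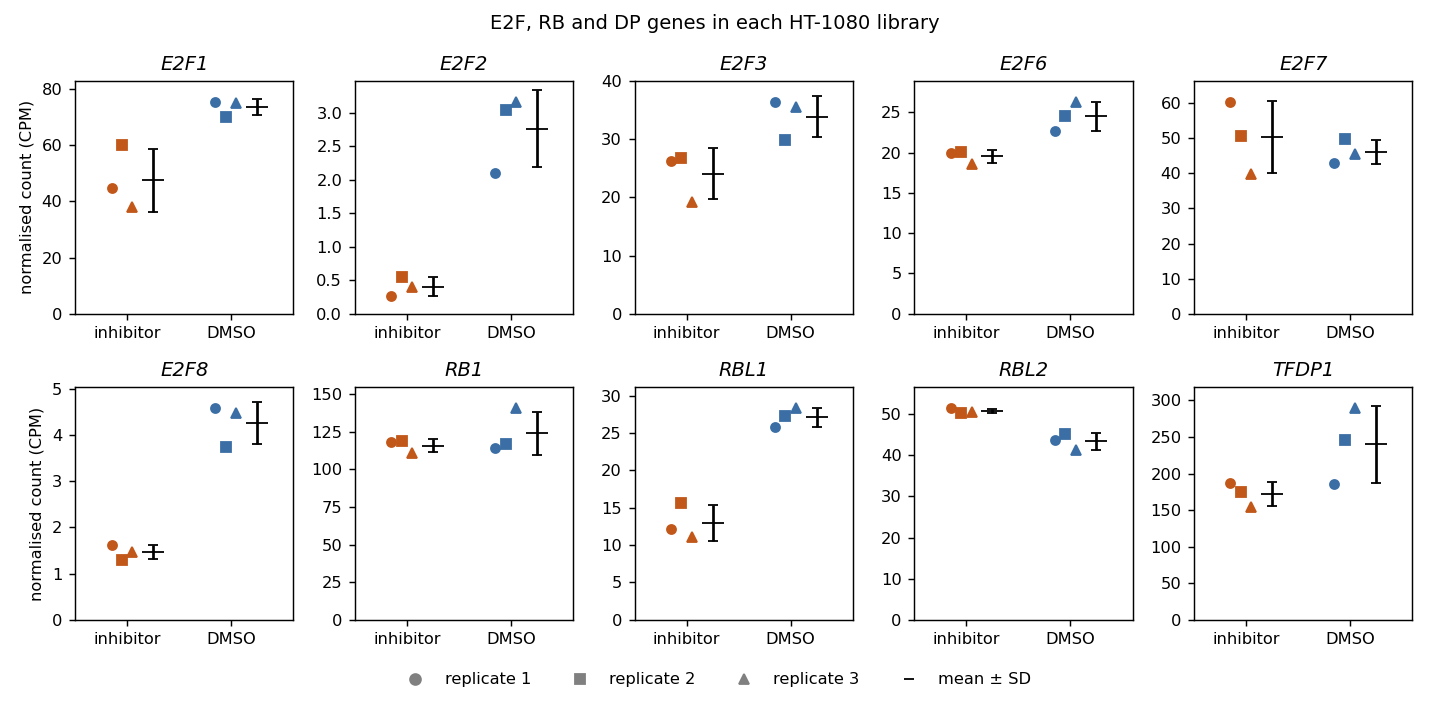
Normalised counts (CPM, vertical axes from 0, a scale for each gene) of the 10 members in the 3 inhibitor and 3 DMSO libraries, with symbols for the replicate number and bars for mean ± SD. The inhibitor points of E2F1, E2F2, E2F3, E2F6, E2F8 and RBL1 lie below all DMSO points, those of RBL2 above them, and those of E2F7, RB1 and TFDP1 overlap them.

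The activator gene E2F2 rested on few counts. Its raw counts were 3, 5 and 3 with the inhibitor and 33, 47 and 38 with DMSO, which are 0.269, 0.543 and 0.402 CPM with the inhibitor and 2.10, 3.03 and 3.16 CPM with DMSO. Every inhibitor library was far below every DMSO library, at a level close to the floor of detection, since 3 counts correspond to 0.191 to 0.402 CPM in these libraries. E2F2 fell, with a log2 fold change of -2.76 ± 0.41 (SE) (edgeR adjusted p = 4.80e-05). It entered the test only through the DMSO group, and with counts this near the floor the fitted size is uncertain. The ratio of summed counts was 0.145, with an exact 95% interval of 0.0704 to 0.269 that covers counting error only.

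E2F1, the founding member of the family, measured 44.6, 60.0 and 38.2 CPM in the inhibitor libraries, against 75.4, 70.3 and 74.9 CPM in the DMSO libraries. The DMSO libraries were close together (SD 2.83 CPM) and the inhibitor libraries were not (SD 11.2 CPM), with inhibitor replicate 2 nearest to the controls. E2F1 fell, with a log2 fold change of -0.62 ± 0.13 (edgeR adjusted p = 0.00171). E2F3 measured 26.3, 26.8 and 19.1 CPM in the inhibitor libraries, against 36.4, 29.8 and 35.5 CPM in the DMSO libraries. Its groups were separated by a narrow margin, between inhibitor replicate 2 and DMSO replicate 2. E2F3 fell (-0.48 ± 0.13, edgeR adjusted p = 0.0139), but the call was gone when inhibitor replicate 3 was left out (adjusted p = 0.0593), and likewise for DMSO replicate 1 (0.0558) or DMSO replicate 3 (0.0524).

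The partner gene TFDP1, whose product pairs with the E2F activators, measured 187, 175 and 155 CPM in the inhibitor libraries, against 185, 245 and 289 CPM in the DMSO libraries. DMSO replicate 1 lay inside the inhibitor range and the other DMSO libraries well above it. TFDP1 fell (-0.48 ± 0.13, edgeR adjusted p = 0.0114), a call lost without DMSO replicate 2 (adjusted p = 0.0502) or DMSO replicate 3 (0.102). Within libraries the ratio of E2F1 to TFDP1 overlapped between groups, with a mean log2 ratio of -1.88 ± 0.29 (SD, n = 3) in the inhibitor libraries against -1.68 ± 0.34 in the DMSO libraries (two-sided exact permutation p = 0.5).

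Of the repressors, E2F8 fell, and E2F6 and E2F7 were not called. E2F8 measured 1.61, 1.30 and 1.47 CPM in the inhibitor libraries, against 4.58, 3.74 and 4.48 CPM in the DMSO libraries. These levels rest on 11 to 18 counts per inhibitor library and 54 to 72 per DMSO library, and the groups were far apart. E2F8 fell (-1.53 ± 0.26, edgeR adjusted p = 2.69e-04), with a ratio of summed counts of 0.346 (exact 95% interval 0.241 to 0.488, counting error only). E2F7, its closest relative, measured 60.3, 50.8 and 39.8 CPM in the inhibitor libraries, against 43.1, 49.7 and 45.5 CPM in the DMSO libraries. The 3 DMSO libraries all lay within the range of the inhibitor libraries. E2F7 was not called (0.13 ± 0.13, edgeR adjusted p = 0.508), and the value was -0.02 without inhibitor replicate 1. E2F6, the Polycomb-linked repressor, measured 19.9, 20.1 and 18.6 CPM in the inhibitor libraries, against 22.6, 24.5 and 26.2 CPM in the DMSO libraries. Its groups did not overlap, but the difference did not pass the test (-0.32 ± 0.12, edgeR adjusted p = 0.0740). It passed with library totals as the only scaling (adjusted p = 0.0288), which moved the median of all genes by -0.0711. E2F3, E2F6 and TFDP1 have annotated pseudogenes, with which reads could be shared.

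Of the pocket proteins, RBL1 alone was called. RBL1, the gene of p107, measured 12.1, 15.6 and 11.1 CPM in the inhibitor libraries, against 25.8, 27.2 and 28.3 CPM in the DMSO libraries. The inhibitor group averaged 47.8% of the DMSO mean, with a gap between the groups wider than the spread inside either. RBL1 fell (-1.06 ± 0.14, edgeR adjusted p = 1.19e-05). RBL2, the gene of p130, which binds E2F in resting cells, measured 51.4, 50.3 and 50.6 CPM in the inhibitor libraries, against 43.8, 45.1 and 41.2 CPM in the DMSO libraries. All inhibitor libraries were above all DMSO libraries, but the difference was not called (0.23 ± 0.11, edgeR adjusted p = 0.138). Exons of AKTIP lie across from exons of RBL2 on the other strand, and the strand setting of the counting is not given in the sources used here. AKTIP itself was not called (0.14 ± 0.13, adjusted p = 0.491). E2F8, RBL1 and RBL2 also overlap unnamed long noncoding genes on the other strand. RB1, the retinoblastoma gene, measured 118, 119 and 111 CPM in the inhibitor libraries, against 114, 117 and 141 CPM in the DMSO libraries. Only DMSO replicate 3 stood above the inhibitor range, and RB1 was not called (-0.10 ± 0.11, edgeR adjusted p = 0.571), with a value of 0.0015 when that library was left out.

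Inhibitor replicate 3 was the lowest inhibitor library for 7 of the 10 members and the highest for 0. Without it, 5 members fell and 0 rose, since E2F3 was no longer called. The log2 fold changes were then -0.50 for E2F1, -2.77 for E2F2, -1.53 for E2F8, -0.97 for RBL1 and -0.41 for TFDP1, each still called (edgeR adjusted p from 4.62e-05 to 0.0362). E2F6 was then at -0.29, E2F7 at 0.27, RB1 at -0.07 and RBL2 at 0.23, all not called.

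**Figure D3:**
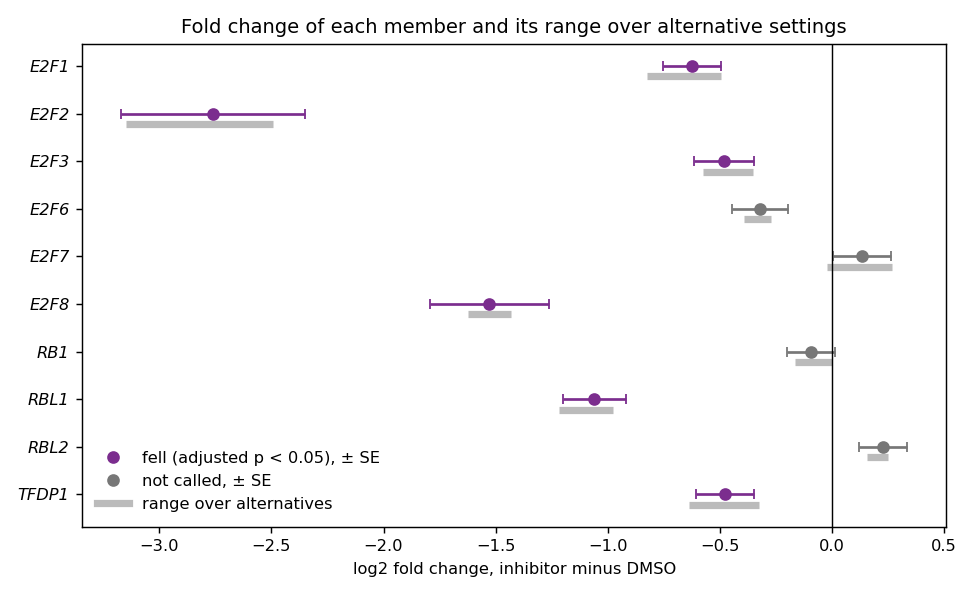
Points give the log2 fold change of each member, inhibitor minus DMSO, with bars for the SE, in purple where the member fell at an adjusted p under 0.05. Grey bars give the range over the alternative settings tried, which include leaving out each library. The range crosses 0 for E2F7 and RB1 only.

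Relatives were then compared within libraries, as the log2 ratio of their counts (with 0.5 added to each), which does not depend on how libraries are scaled. The efficiency of each amplicon sets the level of such a ratio, so only its difference between groups is read. Of 8 pairs chosen, 6 did not overlap between groups, and each of these had a two-sided exact permutation p of 0.1, the smallest that 3 against 3 libraries allow (0.133 after Benjamini-Hochberg adjustment over the 8 pairs). Over all pairs of tested genes, 35.9% did not overlap in either direction, and the 8 pairs share members and were chosen with earlier results known. No pair can therefore pass a threshold of 0.05 here. The log2 ratio of E2F8 to E2F7 averaged -5.03 ± 0.30 (SD, n = 3) in the inhibitor libraries against -3.43 ± 0.26 in the DMSO libraries, a difference of -1.61. That of E2F2 to E2F1 averaged -6.72 ± 0.41 with the inhibitor and -4.74 ± 0.35 with DMSO, a difference of -1.98. This pair is among the 6, but E2F2 entered the test only through the DMSO libraries. Its inhibitor values rest on 3, 5 and 3 counts, close to the floor, so the pair is no separate support. The ratio of E2F3 to E2F1 overlapped between groups (difference 0.15, exact permutation p = 0.4).

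The 3 ratios among the pocket proteins come from 3 genes and are not independent, and the fall of RBL1 enters 2 of them. RBL1 to RBL2 was -2.08, -1.68 and -2.18 on the log2 scale with the inhibitor and -0.76, -0.73 and -0.54 with DMSO, a difference of -1.31. RBL1 to RB1 differed by -0.99 and RBL2 to RB1 by 0.32, and the difference for RBL2 to RB1 was 0.19 without DMSO replicate 3. Inhibitor libraries lay below DMSO libraries for both ratios with RBL1 on top and above them for RBL2 to RB1. E2F1 to RB1 averaged -1.31 ± 0.29 with the inhibitor and -0.75 ± 0.16 with DMSO, a difference of -0.56. When each library was left out in turn, 6 to 8 of the pairs did not overlap, and it was 8 without inhibitor replicate 2.

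**Figure D4:**
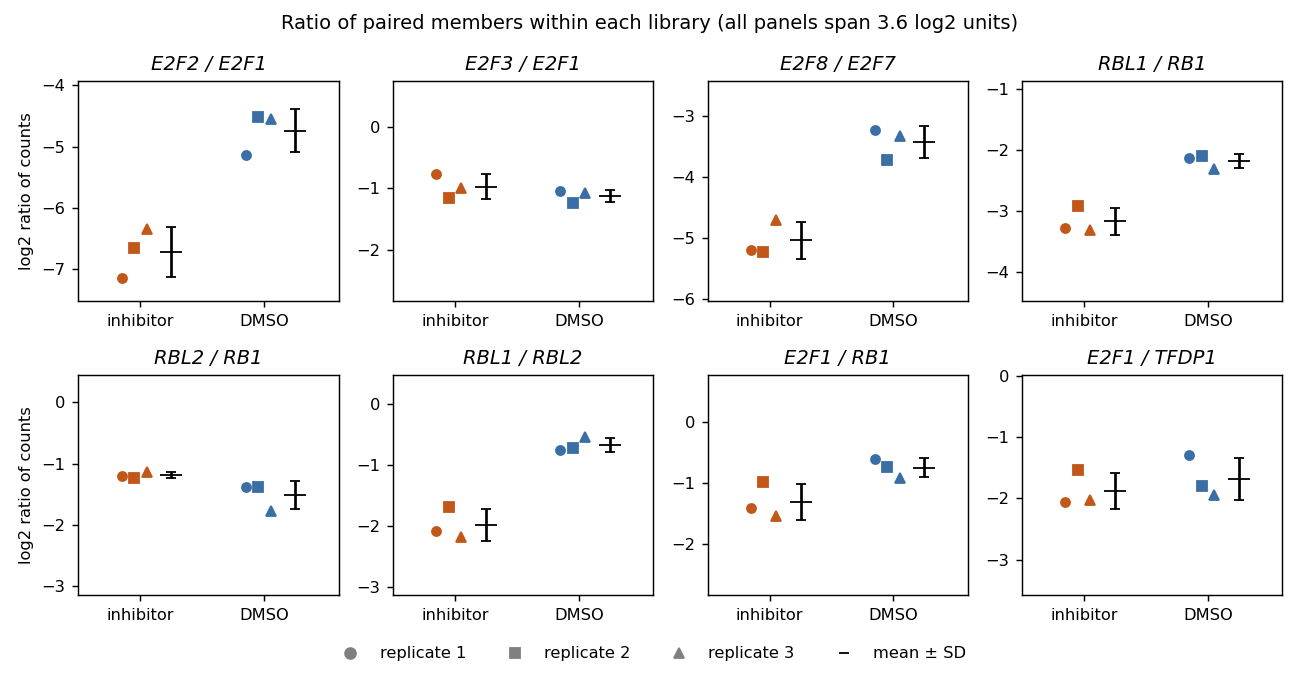
Log2 ratio of the counts of paired members within each library (vertical axes, each panel with the same span), for the 3 inhibitor and 3 DMSO libraries, with mean ± SD. The ratios of E2F2 to E2F1, E2F8 to E2F7, RBL1 to RB1, RBL1 to RBL2 and E2F1 to RB1 are lower in every inhibitor library, that of RBL2 to RB1 is higher, and those of E2F3 and TFDP1 with E2F1 overlap. E2F2 entered the test only through the DMSO libraries and is close to the floor with the inhibitor.

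The rest of the pathway was read from gene lists written from textbook knowledge, with earlier results of these data known. Of the other E2F and DP genes, E2F4, E2F5 and TFDP2 were tested and 0 were called, with log2 fold changes of 0.15 ± 0.10 for E2F4, which represses with p107 and p130, and 0.29 ± 0.21 for E2F5. The value for E2F5 was -0.0045 without inhibitor replicate 3. TFDP2 was at 0.10 ± 0.12, and TFDP3 had no count.

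Of 53 S phase targets of E2F, all tested, 44 fell and 0 rose (83% against 10.3% of all genes that fell), with a median log2 fold change of -0.73 against 0.0033 over all genes. The largest falls were in the nuclease gene EXO1 (12.6 ± 1.34 CPM in the inhibitor libraries against 29.1 ± 3.74 in the DMSO libraries, SD, n = 3 each), in CLSPN, the gene of the checkpoint mediator claspin (28.6 ± 5.51 CPM in the inhibitor libraries against 64.5 ± 0.476 in the DMSO libraries), and in MCM10, a gene of replication initiation (52.2 ± 2.62 CPM in the inhibitor libraries against 116.5 ± 7.31 in the DMSO libraries). Of the genes in this list with a RefSeq promoter window, 29 of 47 (61.7%) held one of the E2F words, against 7.43% of all genes in the RefSeq table. Such letters are part of how genes came to be known as targets, so the list and the words are not independent. The G2 and M genes, which MuvB complexes read, numbered 21, of which 5 fell (23.8%, against 10.3% of all tested genes) and 0 rose, with a median of -0.26. KIF11, a spindle motor gene (16.0 ± 1.69 CPM with the inhibitor and 29.2 ± 4.51 with DMSO), AURKA, a mitotic kinase gene (14.1 ± 0.987 CPM in the inhibitor libraries against 23.7 ± 3.58 in the DMSO libraries), and BUB1, a gene of the spindle checkpoint (49.6 ± 7.77 CPM in the inhibitor libraries against 68.0 ± 4.37 in the DMSO libraries), had the largest falls. Without inhibitor replicate 1, BUB1 was not called (edgeR adjusted p = 0.0633). The number that fell was 3 without that library, 8 without inhibitor replicate 3, 8 with no filter and 10 with library totals alone.

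Of the 8 genes of the MuvB core and the factors that join it, 3 fell (37.5%, against 10.3% of all tested genes) and 0 rose. MYBL2, the gene of the factor B-Myb, fell by 0.66 on the log2 scale, LIN9 by 0.45 and FOXM1 by 0.36. Without inhibitor replicate 1, LIN9 was not called (edgeR adjusted p = 0.0688), nor was FOXM1 without inhibitor replicate 3, DMSO replicate 2 or DMSO replicate 3 (adjusted p up to 0.115). The other members of the list, not called, lay between -0.38 for LIN52 and 0.34 for LIN54, and 1 gene of the list rose when libraries were thinned to the smallest total.

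Of 9 genes of cyclins and kinases whose products act upstream of the pocket proteins, 5 fell (55.6%, against 10.3% of all tested genes) and 1 rose. The number that fell was 4 without DMSO replicate 2 or DMSO replicate 3, and 6 with library totals alone or with DESeq2. Upstream refers to the place of the proteins, and whether E2F controls these genes was not tested. CCNE2, the gene of a cyclin E, averaged 6.24 ± 0.416 CPM in the inhibitor libraries against 18.7 ± 1.28 in the DMSO libraries. CDC25A, a phosphatase gene that activates cyclin kinases, averaged 11.9 ± 2.08 CPM in the inhibitor libraries against 31.2 ± 2.82 in the DMSO libraries. CCND3, the gene of cyclin D3, fell as well, with 20.9 ± 0.914 CPM in the inhibitor libraries against 33.6 ± 1.57 in the DMSO libraries. CCND2, the gene of cyclin D2, rose at a low level (4.85 ± 0.546 CPM with the inhibitor and 2.58 ± 0.891 with DMSO), a call lost without inhibitor replicate 1 or DMSO replicate 3 (edgeR adjusted p up to 0.0807). The kinase genes CDK4 and CDK6 had log2 fold changes of -0.03 ± 0.13 and -0.02 ± 0.11 and were not called. CCND1, the gene of cyclin D1, was not called either (-0.25 ± 0.10, edgeR adjusted p = 0.0771). All libraries are from 4 h, so whether the changes in this list came before or after those of the E2F genes was not tested.

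Of 4 tested genes of kinase inhibitors, 1 rose (9.91% of all tested genes did) and 1 fell (10.3%). CDKN1A, the gene of p21, averaged 290.1 ± 40.3 CPM in the inhibitor libraries against 195 ± 23.0 in the DMSO libraries, and rose by 0.57 ± 0.12 on the log2 scale (edgeR adjusted p = 0.00121). CDKN2C, the gene of p18, itself an E2F target, fell (-0.88 ± 0.13). CDKN2A and CDKN2B had no count in any library, where 3 counts would be 0.191 to 0.402 CPM, and HT-1080 is known as a line that lacks the CDKN2A locus. CDKN1C had too few counts to test.

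Of 14 genes of the E2F6 Polycomb complex, 5 fell (35.7%, against 10.3% of all tested genes) and 0 rose, with a median of -0.30. PCGF6, a subunit that defines this complex, averaged 8.37 ± 0.269 CPM in the inhibitor libraries against 15.2 ± 1.83 in the DMSO libraries. WDR5, a subunit shared with other chromatin complexes, averaged 41.1 ± 3.70 CPM in the inhibitor libraries against 62.6 ± 2.35 in the DMSO libraries, and the deacetylase gene HDAC1 averaged 135 ± 11.9 CPM in the inhibitor libraries against 171 ± 18.7 in the DMSO libraries. The HDAC1 call was lost without inhibitor replicate 1, DMSO replicate 1 or DMSO replicate 2 (edgeR adjusted p up to 0.135). The number of genes of this complex that fell was 2 without inhibitor replicate 1 or DMSO replicate 2, 3 without DMSO replicate 1 and 8 with library totals alone. Of 10 germline genes known, mostly in mouse, to be repressed by such complexes, 1 passed the filter on low counts. That gene, TUBA3C, fell (-0.48 ± 0.13, edgeR adjusted p = 0.00887), but has near-identical copies between which reads could be split, and its call was lost without DMSO replicate 2 (adjusted p = 0.0522). Of 8 genes of corepressors that bind RB, 1 fell, HDAC1 again, and 0 rose. This share of 12.5% is near the 10.3% of all tested genes and is no result about the list. The number was 0 to 3 over the alternatives, with 0 without inhibitor replicate 1, DMSO replicate 1 or DMSO replicate 2.

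Of 5 genes for the turnover of E2F proteins, 2 fell (40%, against 10.3% of all tested genes) and 0 rose, and 1 fell when CUL1 lost its call. SKP2, the ubiquitin ligase subunit that targets E2F1 and p27, averaged 36.4 ± 3.11 CPM in the inhibitor libraries against 64.0 ± 4.04 in the DMSO libraries. The scaffold gene CUL1 fell by 0.32, and its call was lost when any library but DMSO replicate 3 was left out (edgeR adjusted p up to 0.129). Of 7 tested death genes under E2F1, 1 fell (14.3%, near the 10.3% of all tested genes) and 2 rose (28.6%, against 9.91%). BCL2L11, the gene of BIM, averaged 5.63 ± 1.16 CPM in the inhibitor libraries against 10.1 ± 0.507 in the DMSO libraries. The other direction was taken by PMAIP1, the gene of NOXA, with 65.4 ± 12.9 CPM in the inhibitor libraries against 32.7 ± 1.39 in the DMSO libraries, and BBC3, the gene of PUMA, with 7.41 ± 0.493 CPM in the inhibitor libraries against 4.41 ± 1.09 in the DMSO libraries. The list's count of falls was 0 with a minimum of 10 CPM, 2 without inhibitor replicate 2 or 3, and 3 with library totals alone or no filter, and its count of rises was 1 with a minimum of 10 CPM. The BBC3 call was lost without DMSO replicate 3 (edgeR adjusted p = 0.0675), which leaves 1 rise, and these genes are also known as targets of other factors.

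**Figure D5:**
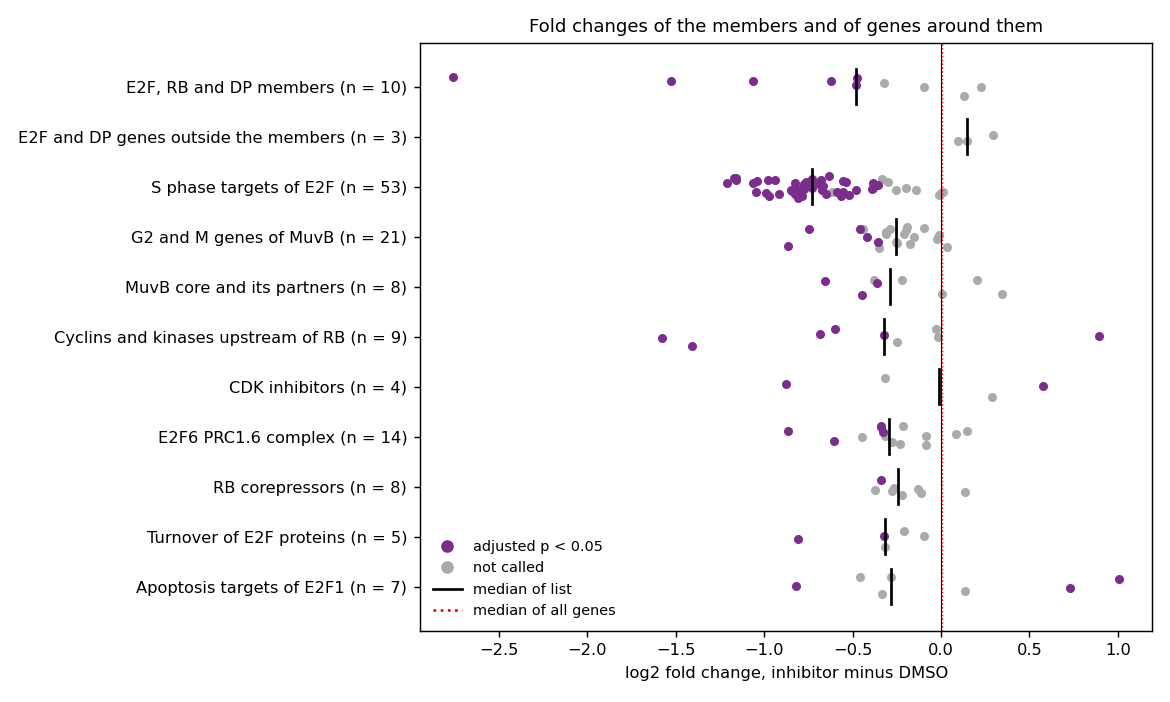
Each point is a tested gene, placed by its log2 fold change, inhibitor minus DMSO, in purple where it was called at an adjusted p under 0.05, with a black bar at the median of its list and a dotted line at the median of all genes. The S phase targets lie almost wholly below 0, with a median of -0.73, while E2F4, E2F5 and TFDP2 lie just above it (E2F5 at -0.0045 without inhibitor replicate 3).

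Genes whose pattern was most like that of a member were found by the root mean square difference in log2 CPM over the 6 libraries, after each gene was centred on its own mean. This was done for the called members with at least 5 CPM. The nearest to E2F1 were MRPL50 (0.0673), POLA2 (0.0850) and ARHGAP10 (0.0916), where the closest 1% of genes lay within 0.161. The nearest to E2F3 were NFATC2IP (0.0452), BTG3 (0.0508) and AFF1 (0.0603), and the closest 1% lay within 0.137. The nearest to RBL1 were STRIP2 (0.0697), DTL (0.0763) and the histone gene HIST1H3A (0.0831), and the closest 1% lay within 0.222. The nearest to TFDP1 were ERRFI1 (0.0845), HIST1H2AG (0.0860) and FANCM (0.0868), of which HIST1H2AG was called, though not without DMSO replicate 3 (edgeR adjusted p = 0.0506). The closest 1% for TFDP1 lay within 0.143. Histone genes have near-identical copies, so their counts are uncertain.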

How the data were processed

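Libraries were made from RNA of HT-1080 cells with the Ion AmpliSeq Transcriptome panel and read on the Ion Proton instrument, according to the labels' protocols. The deposited values are raw counts of reads per gene symbol, and each library has its own table. The submitters' processing notes list HTSeq, DESeq2 (1.20.0) and hg19 without a role. For the aligner, annotation and strand setting, a statement is not given in the sources used here. Groups came from the sample titles, and each pair of libraries of a group differed beyond counting error (chi-square over degrees of freedom 9.32 to 14.7), so none looked like a library deposited again, though technical repeats would differ in this way too. The design text calls them biological replicates without naming separate cultures, so p-values measure the spread between these samples, which may be partly technical.

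Counts were tested in R 4.3.3 with edgeR 4.0.16: filterByExpr, TMM scaling, the quasi-likelihood test of inhibitor minus DMSO without covariates, and Benjamini-Hochberg adjustment over 11391 genes, and genes under 0.05 were called. The genes tested held 99.9% of the counts. CPM use TMM-scaled library sizes, SE is the absolute log2 fold change over the root of the F statistic, and "rose" and "fell" refer to calls. Intervals from counts cover counting error only, since copies made by PCR were counted without molecular identifiers. The procedure was tested on simulated counts. Alternatives were DESeq2 size factors, library totals, no filter, genes averaging at least 10 CPM, DESeq2 1.42.0, the replicate block, libraries thinned to the smallest total, and each library left out.

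Members, lists, pairs and tests were chosen with earlier results of these data known. The rule named all members, from each list up to 3 called genes in each direction with the largest fold change (or, with none called, up to 2 with the smallest p), and the 3 genes most like each called member with a mean of at least 5 CPM. CCND1, CDK4, CDK6, LIN52, LIN54, TFDP2, CDKN2A, CDKN2B, CDKN1C and AKTIP were chosen after their values were seen. Promoter sequences are RefSeq's (GRCh38.p14). Exon overlaps were read from GENCODE annotation on GRCh38 by name.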

Additional observations from a re-analysis of the deposited data

How the results depend on the processing

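The number of members that fell was 6, and 4 to 7 over the alternatives: 7 with library totals as the only scaling, 4 with a minimum of 10 CPM, which leaves E2F2 and E2F8 untested, and 4 to 6 when a library was left out. No member rose under any alternative tried. E2F1, E2F2, E2F8 and RBL1 fell under each alternative in which they were tested. E2F2 entered the main test only through the DMSO libraries, so its calls under other settings are no separate support. When a library was left out, the log2 fold change of E2F7 was lowest at -0.023, with inhibitor replicate 1 omitted, and highest at 0.27, with inhibitor replicate 3 omitted. That of RB1 lay between -0.16, with DMSO replicate 1 omitted, and 0.0015, with DMSO replicate 3 omitted, and that of E2F5 between -0.0045, with inhibitor replicate 3 omitted, and 0.48, with inhibitor replicate 2 omitted. These signs therefore turn, and none of the 3 genes was called in any setting. The cause was not tested. The genes changed numbered 1405 (without DMSO replicate 2) to 2246 when a library was left out. Same-numbered libraries of the 2 groups did not deviate together (r of 0.0317, -0.0166 and 0.0069 across genes), and no library correlated best with its own number. With the replicate block 2221 genes were called, and 6 members fell. Of the S phase targets, 41 to 46 fell over the alternatives, and 42 without inhibitor replicate 3. Depth limits the sizes given for E2F2 and E2F8, which rest on 11 and 41 summed counts in the inhibitor libraries, and leaves CDKN1C and most germline genes untested.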
